A study of Mus musculus with 8 samples.

Results

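The genes described here encode 5 subunits of the interferon and interleukin-10 (IL-10) receptors, Ifnar1, Ifnar2, Ifngr1, Ifngr2 and Il10rb, and the 3 Janus kinases (JAKs) that these receptors use, Jak1, Jak2 and Tyk2. They were picked by symbol, through the Ensembl ID of each row in a table of 19493 genes, and this family was proposed after the comparison of genotypes was known. The differences between genotypes of these 8 genes are therefore given as a description, and counts of how many the fit over all genes called are printed with nothing read from them. All 8 passed the filter on low counts, as did 16470 genes in all. Mouse embryonic fibroblasts (MEFs) from E14.5 embryos, all labelled with the strain C57BL/6J.129P2 and, by the methods, from mice backcrossed to C57BL/6JNimr, gave 4 wild-type (WT) and 4 Dp1Tyb libraries, and the cells had no treatment other than passaging. Dp1Tyb cells carry the duplication Dp(16Lipi-Zbtb21)1TybEmcf, so that genes between Lipi and Zbtb21 on chromosome 16 are present in 3 copies where WT cells have 2. Poly(A) RNA was sequenced with ERCC spike-ins, synthetic RNAs added in equal amount per cell. The labels do not say whether each library came from a separate embryo, so the errors measure the spread between these libraries.

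Interferons act through receptors built from paired chains. Type I interferons bind IFNAR1 and IFNAR2, interferon-gamma binds IFNGR1 and recruits IFNGR2, and IL10RB is the shared second chain of the receptors for IL-10, IL-22 and the lambda interferons. The chains have no enzyme activity of their own and hold JAKs at their cytoplasmic tails: TYK2 on IFNAR1 and IL10RB, JAK2 on IFNGR2, and JAK1 on IFNAR2 and IFNGR1. Ligand binding lets the kinases phosphorylate each other, the receptor tails and then STAT factors, which enter the nucleus. Fibroblasts respond to both types of interferon.

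Of the family, 4 genes lie in the duplicated stretch, next to each other and all on the plus strand of chromosome 16 (GRCm38). Ifnar2 (ENSMUSG00000022971) spans 91372783 to 91405589, Il10rb (ENSMUSG00000022969) 91406164 to 91425834, Ifnar1 (ENSMUSG00000022967) 91485238 to 91507441 and Ifngr2 (ENSMUSG00000022965) 91547072 to 91565623. The cluster covers 192841 bp, and its closest neighbours, Ifnar2 and Il10rb, are 574 bp apart. The other 4 genes lie elsewhere: Ifngr1 (ENSMUSG00000020009) on chromosome 10, 19591949 to 19610229, Jak1 (ENSMUSG00000028530) on chromosome 4, 101152367 to 101265282, Jak2 (ENSMUSG00000024789) on chromosome 19, 29251828 to 29313080, and Tyk2 (ENSMUSG00000032175) on chromosome 9, 21104068 to 21131243. The gamma receptor thus has 1 chain inside the duplication and 1 outside it. The annotation also has Gm21970, a gene from 91391721 to 91419451 that reaches from within Ifnar2 into Il10rb and shares 315 exon bases with Ifnar2 (9.46% of its exon bases) and 569 with Il10rb (14.9%). It has no row in the count table, and how reads from those bases were counted was not tested.

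To show what these clustered genes have in common at their starts, the 250 bases upstream of the RefSeq start (GRCm38.p6) are printed for the duplicated subunits Ifnar2, Ifnar1 and Ifngr2 and for Ifngr1, the partner chain of Ifngr2 that is not duplicated. Capitals mark matches on either strand to the GC box GGGCGG, the ETS core CCGGAA and the interferon-gamma activated site (GAS) pattern TTCNNNGAA. Promoters of 7 of the 8 genes were matched in the RefSeq table, all but Il10rb.
Ifnar2, chr16:91372533-91372782, plus strand: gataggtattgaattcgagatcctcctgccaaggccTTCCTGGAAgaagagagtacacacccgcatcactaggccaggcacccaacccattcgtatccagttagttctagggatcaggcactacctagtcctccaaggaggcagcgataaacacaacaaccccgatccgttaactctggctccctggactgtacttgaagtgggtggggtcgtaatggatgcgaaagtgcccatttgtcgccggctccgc
Ifnar1, chr16:91484965-91485214, plus strand: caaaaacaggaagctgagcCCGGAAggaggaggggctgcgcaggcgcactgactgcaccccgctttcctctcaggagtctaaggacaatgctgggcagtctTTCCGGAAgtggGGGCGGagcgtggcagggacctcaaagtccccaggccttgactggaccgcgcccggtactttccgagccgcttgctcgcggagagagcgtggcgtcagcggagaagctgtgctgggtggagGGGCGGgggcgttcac
Ifngr2, chr16:91546809-91547058, plus strand: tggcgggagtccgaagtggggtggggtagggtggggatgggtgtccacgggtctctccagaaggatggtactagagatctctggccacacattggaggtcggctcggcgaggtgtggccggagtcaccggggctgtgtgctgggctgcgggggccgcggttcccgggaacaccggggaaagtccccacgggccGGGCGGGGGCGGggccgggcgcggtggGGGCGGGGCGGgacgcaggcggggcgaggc
Ifngr1, chr10:19591699-19591948, plus strand: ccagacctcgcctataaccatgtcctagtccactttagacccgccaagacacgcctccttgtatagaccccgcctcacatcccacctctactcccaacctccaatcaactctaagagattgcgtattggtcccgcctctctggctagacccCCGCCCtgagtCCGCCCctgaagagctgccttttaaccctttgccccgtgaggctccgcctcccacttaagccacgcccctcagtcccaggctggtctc

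The Ifnar2 promoter held no GC box and 1 GAS pattern, 214 to 206 bases before the start. Ifnar1 held 2 GC boxes and 3 ETS cores, a pair of which overlap on opposite strands. Ifngr2 held 4 GC boxes, the last pair sharing 1 base, and Ifngr1 held 2. GC boxes were also found upstream of Jak1, Jak2 and Tyk2, so that 6 of the 7 promoters had at least 1, against 32.7% of the 32851 promoters of the table. The ETS core was present in 12% and the GAS pattern in 7.02% of all promoters. None of the 7 held the core of the interferon-stimulated response element or the TATA box TATAAA on either strand, which 2.98% and 12.4% of all promoters hold. The G and C content of the upstream bases was 54% for Ifnar2, 65.6% for Ifnar1, 74% for Ifngr2 and 80.8% for Jak2, and the median of all promoters was 52.4%. The printed promoters of the cluster thus differed from each other in these patterns. These matches describe letters in a window and not bound sites.

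The libraries held 17698900 to 26471758 counts, of which the 8 genes took at least 272 each in every library, so that counting error was at most 6.06% of a value. Of 8 fibroblast markers all were detected, and their summed level ran from 12652 to 21524 CPM (counts scaled to library size) in WT and from 14580 to 20886 in Dp1Tyb. Markers of leukocytes summed to between 144 and 356 CPM in all 8 libraries, those of endothelium to at most 78.9 CPM, those of skeletal muscle to at most 53.4 CPM and those of epithelium to at most 20.02 CPM. The muscle markers summed to 10.1, 39.7, 14.4 and 13.5 CPM in WT replicates 1, 2, 3 and 4 and to 5.61, 53.4, 38.5 and 39.9 CPM in those of Dp1Tyb. Replicate 1 was thus the lowest of each genotype, as for Jak2, and all 3 tested muscle markers had log2 fold changes above 0. Their part in the values below was not tested. Fewer cells of a type and less RNA per cell cannot be told apart in such cultures. Endogenous RNA per spike-in ranged from 0.688 to 1.31 times the geometric mean of the libraries, and this range enters every value scaled to the spike-ins.

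All 4 duplicated subunits were higher in Dp1Tyb than in WT MEFs, by a median of 1.62-fold when libraries were scaled to the endogenous genes (relative scaling) and 1.75-fold when scaled to the spike-ins. Ifngr1 and the JAKs had a median ratio of 1.02 and 1.09. Under relative scaling every Dp1Tyb library was above every WT library for each of the 4 duplicated subunits and for none of the other 4 genes. Such a separation was seen for 1.64% of all tested genes, and for 39.8% of the 108 other tested genes in the duplicated stretch. Under spike-in scaling, where 0.285% of all tested genes separated in this way, Ifnar1 alone of the 8 did. These 108 genes had a median of 1.44-fold with relative and 1.56-fold with spike-in scaling, and over all tested genes the log2 fold change had a median of 0.01 with relative and 0.11 with spike-in scaling. Since the duplicated subunits were proposed with this contrast known, nothing is read from these counts.

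**Figure D1:**
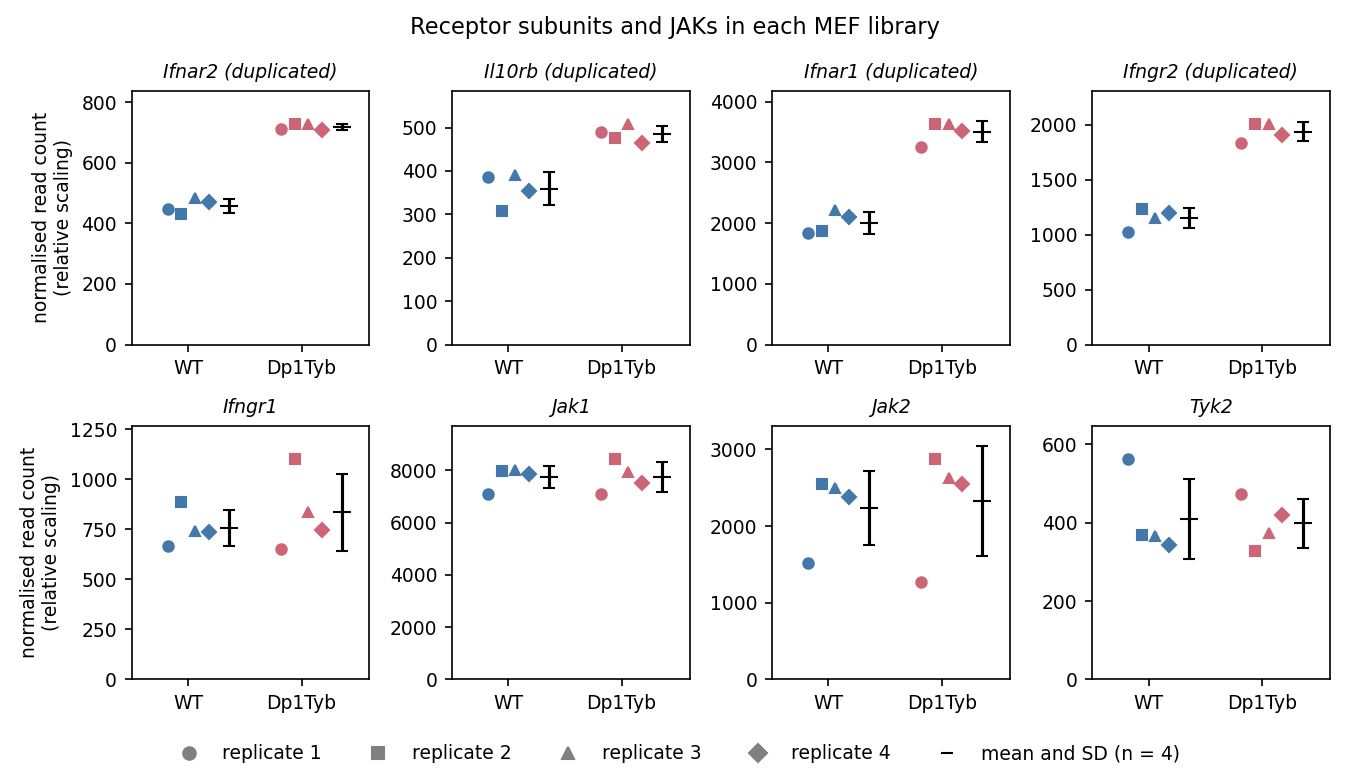
Normalised read count (relative scaling, linear axis from 0) of each gene in the 4 WT (blue) and 4 Dp1Tyb (red) libraries; marker shapes are replicates and black bars are the mean and SD. The upper row holds the duplicated subunits, in which the Dp1Tyb libraries lie above all WT libraries, and in the lower row the groups overlap.

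Ifnar1, the chain of the type I receptor that binds TYK2, gave normalised read counts, here and below in the order of replicates 1 to 4, of 1838, 1865, 2214 and 2105 in WT MEFs and 3249, 3629, 3623 and 3522 in Dp1Tyb MEFs (relative scaling). The lowest Dp1Tyb library was well above the highest WT library. Its mean rose from 2006 ± 184 to 3506 ± 178 (SD, n = 4 each), a log2 fold change of 0.81 (SE 0.10), and the 95% interval of the fold, 1.504 to 2.03, lay just above the 1.5 of the ratio of copies. With spike-in scaling the WT libraries held 2181, 1646, 1579 and 2462 and the Dp1Tyb libraries 3913, 2496, 3813 and 4628. The groups remained apart, with Dp1Tyb replicate 2 close to WT replicate 4, and the log2 fold change was 0.92 (SE 0.32); the interval of the fold, 1.23 to 2.91, includes 1.5. Of the 8 genes edgeR called 1, Ifnar1, under relative scaling, where 0.0182% of all tested genes were called, and DESeq2 called 3, Ifnar1, Ifnar2 and Ifngr2, where it called 0.316%. The edgeR call of Ifnar1 was lost when any of the 8 libraries was left out, and with all of them under median-of-ratios scaling, without a filter or with a filter of at least 10 counts in every library, while its log2 fold change stayed between 0.77 and 0.87. Under spike-in scaling, where 0.0121% of tested genes were called, no member was called by edgeR or DESeq2, and 3 had an unadjusted p under 0.05 in edgeR, as did 1.17% of all tested genes.

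Ifnar2, the high-affinity chain of the same receptor, which binds JAK1, gave 447, 432, 483 and 472 normalised read counts in WT MEFs, against 712, 728, 727 and 707 in Dp1Tyb MEFs (relative scaling). The groups did not overlap, and the Dp1Tyb libraries were very close to each other, with a coefficient of variation of 1.49% against 5.07% in WT. The log2 fold change was 0.65 (SE 0.09), or 1.57-fold with an interval from 1.36 to 1.81. With spike-in scaling the mean of Ifnar2 went from 452 ± 104 to 763 ± 187 (SD, n = 4 each), and Dp1Tyb replicate 2, at 501, fell within the range of the WT libraries.

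Ifngr2, the signalling chain of the interferon-gamma receptor, had 1020, 1236, 1147 and 1198 normalised read counts in WT MEFs, against 1829, 2005, 2002 and 1907 in Dp1Tyb MEFs (relative scaling). The gap between the groups was again larger than the spread within either. The log2 fold change was 0.75 (SE 0.09), a fold of 1.68 with an interval from 1.45 to 1.95. With spike-in scaling the mean went from 1130 ± 244 to 2048 ± 478 (SD, n = 4 each), and 3 of 4 Dp1Tyb libraries were above all WT libraries.

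Il10rb, the shared second chain of IL-10 family receptors, had 385, 308, 391 and 354 normalised read counts in WT MEFs, against 490, 475, 508 and 465 in Dp1Tyb MEFs (relative scaling). The groups did not overlap, and the difference was the smallest of the 4 duplicated subunits. Its log2 fold change was 0.43 (SE 0.11), a fold of 1.35 with an interval from 1.13 to 1.61 that includes 1.5. With spike-in scaling its mean went from 355 ± 94.0 to 516 ± 130 (SD, n = 4 each), with an interval of the fold from 0.920 to 2.29.

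**Figure D2:**
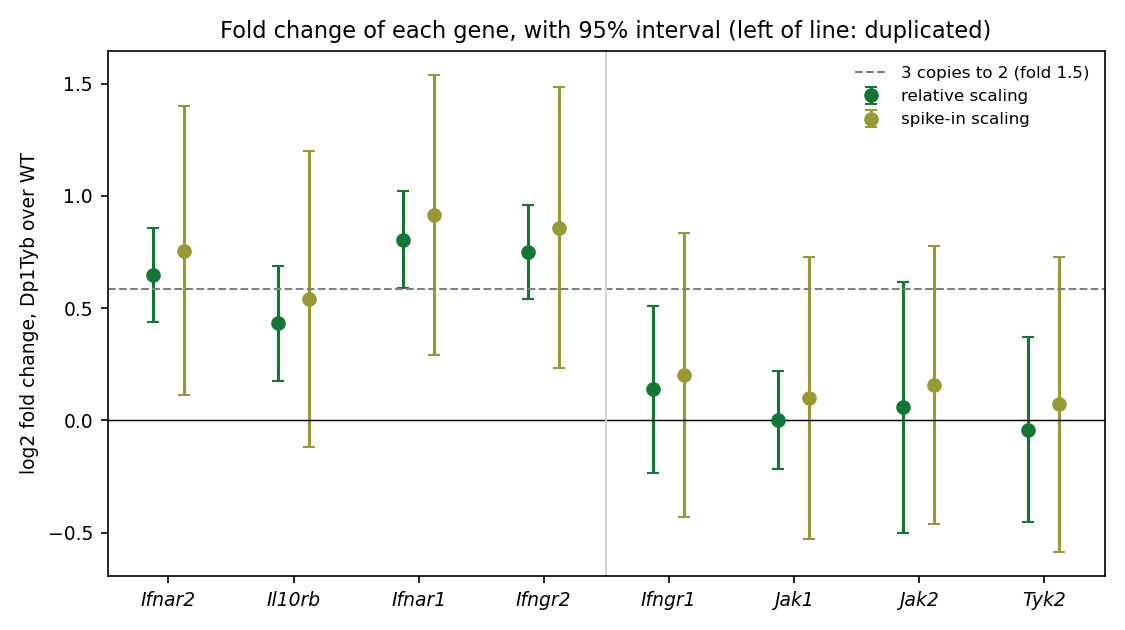
Log2 fold change of Dp1Tyb over WT for each gene (points) with its 95% interval from edgeR (bars), under relative (green) and spike-in scaling (olive); the dashed line is a fold of 1.5 and the solid line no change. Under relative scaling the intervals of the 4 duplicated subunits lie above 0 and those of Ifngr1, Jak1, Jak2 and Tyk2 include 0; with spike-in scaling the interval of Il10rb also includes 0.

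Among the genes outside the duplication, Ifngr1, the ligand-binding chain of the interferon-gamma receptor, had 668, 884, 742 and 734 normalised read counts in WT MEFs, against 650, 1101, 838 and 747 in Dp1Tyb MEFs (relative scaling). Replicate 1 was the lowest and replicate 2 the highest library in each genotype, and the groups overlapped. The log2 fold change was 0.14 (SE 0.17), and without Dp1Tyb replicate 2 it was -0.02.

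Jak1, which serves all receptors of the family, was the most even of the kinases, with 7109 to 8009 normalised read counts in WT and 7105 to 8442 in Dp1Tyb (relative scaling). Its mean was 7743 ± 426 and 7750 ± 576 (SD, n = 4 each), and the interval of the fold, 0.860 to 1.16, leaves out 1.5. With spike-in scaling the interval of the Jak1 fold was wider, from 0.695 to 1.65, so a change of the size of the copy ratio could not be told from none on that scale.

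Jak2, the kinase of Ifngr2, had 1522, 2551, 2497 and 2379 normalised read counts in WT MEFs, against 1273, 2877, 2625 and 2550 in Dp1Tyb MEFs (relative scaling). Replicate 1 was far below the other three in each genotype. Tyk2, the kinase of Ifnar1 and Il10rb, had 563, 369, 365 and 344 in WT MEFs, against 473, 328, 374 and 420 in Dp1Tyb MEFs. Replicate 1, the lowest for Jak2, was the highest of each genotype for Tyk2. The log2 fold change between genotypes was 0.06 (SE 0.25) for Jak2 and -0.04 (SE 0.19) for Tyk2, whose sign was positive, at 0.07, with spike-in scaling. Leaving out both replicates 1, a choice made after these values were seen, gave 0.12 for Jak2 and 0.06 for Tyk2, and 0.80 for Ifnar1, 0.64 for Ifnar2, 0.73 for Ifngr2 and 0.46 for Il10rb. An antisense gene, 1700084C06Rik, overlaps 8.07% of the exon bases of Tyk2 and held a mean of 13.5 counts per library.

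**Figure D3:**
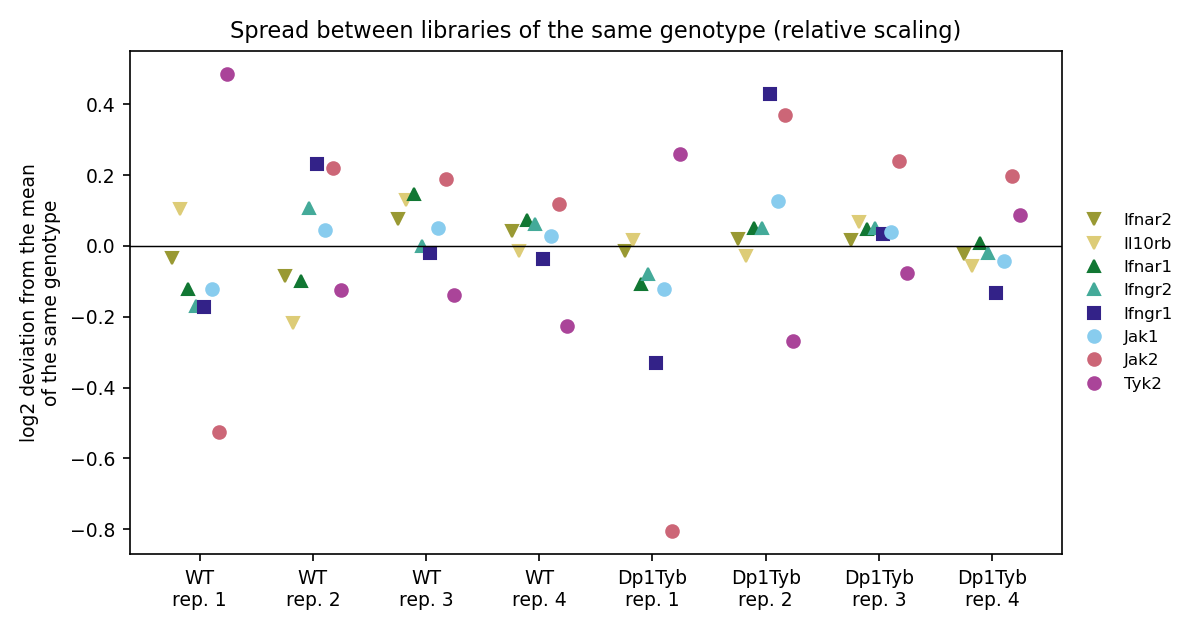
Log2 deviation of each gene from the mean of its genotype in each library (relative scaling); each symbol is 1 gene in 1 library. In replicate 1 of both genotypes Jak2 is lowest and Tyk2 highest of the 8 genes.

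Ratios of counts within a library are free of the scaling. There were 1.53, 1.40, 1.55 and 1.63 Ifngr2 counts per Ifngr1 count in WT MEFs, against 2.81, 1.82, 2.39 and 2.55 in Dp1Tyb MEFs. All 4 Dp1Tyb libraries were above the WT libraries, which were alike, and the Dp1Tyb libraries were spread widely, with replicate 2 lowest. The log2 ratio went from 0.61 ± 0.09 to 1.24 ± 0.27 (SD, n = 4 each), and the ratio was 1.55-fold higher. The balance between the read counts of the gamma receptor chains thus differed 1.55-fold between genotypes, beside 1.68-fold for the level of Ifngr2 itself. Receptor proteins were not measured.

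In the type I receptor, both of whose chains are duplicated, there were 4.11, 4.32, 4.58 and 4.46 Ifnar1 counts per Ifnar2 count in WT MEFs, against 4.56, 4.98, 4.98 and 4.98 in Dp1Tyb MEFs. Dp1Tyb replicate 1 lay just under WT replicate 3, so the groups overlapped in that library, and the other three were higher. The log2 ratio was higher by 0.16, going from 2.13 ± 0.07 to 2.28 ± 0.06 (SD, n = 4 each). The balance of the type I chain counts therefore moved far less than that of the gamma chain counts, where Ifngr2 is duplicated and Ifngr1 is not. Counts of Ifnar1 per count of Jak1, a ratio chosen after the values were seen, were 0.234 to 0.276 in WT and 0.430 to 0.470 in Dp1Tyb. Counts of Jak2 per count of Tyk2, likewise chosen after the values were seen and a restatement of the levels in replicate 1, were 2.70 and 2.69 in replicate 1 of WT and Dp1Tyb and 6.07 to 8.76 in the other libraries.

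**Figure D4:**
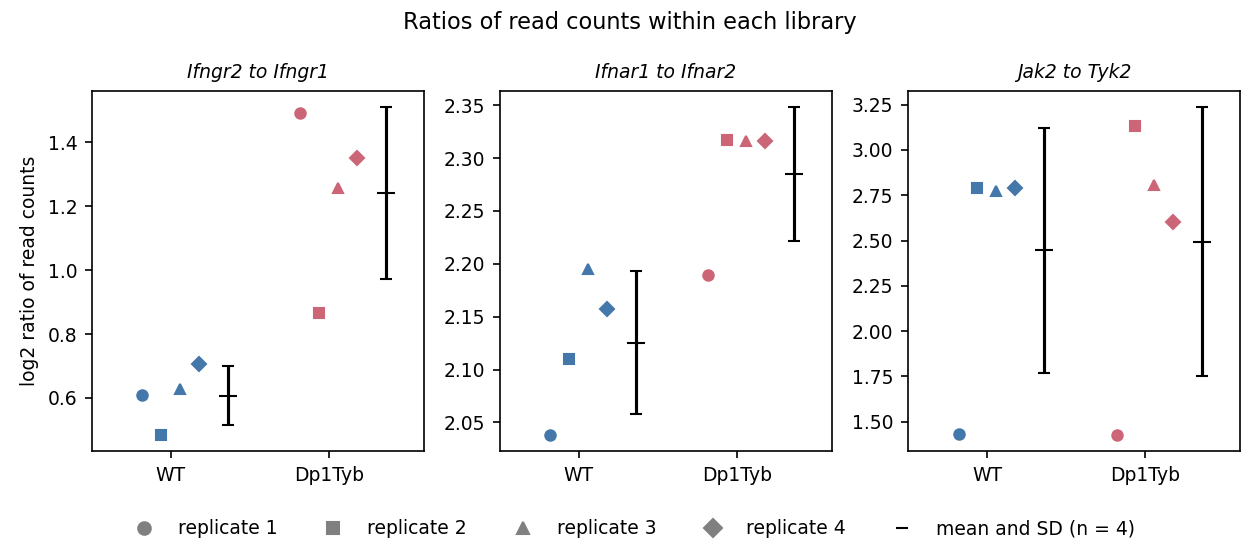
Log2 ratio of read counts of 2 genes within each library (vertical axes differ and do not start at 0), for the gamma receptor chains, the type I receptor chains and the kinases Jak2 and Tyk2; black bars are the mean and SD. The Ifngr2 to Ifngr1 ratio separates the genotypes, and the Jak2 to Tyk2 ratio separates replicate 1 of each genotype from the other libraries.

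Levels of different genes were compared per exon length, as RPKM (reads scaled to exon length and library size) with relative scaling. In WT the order was Jak1 at 51.3 ± 2.82, Jak2 at 21.3 ± 4.59, Ifnar1 at 16.2 ± 1.48, Ifngr2 at 14.6 ± 1.20, Ifngr1 at 12.7 ± 1.52, Ifnar2 at 6.59 ± 0.33, Il10rb at 4.52 ± 0.48 and Tyk2 at 2.86 ± 0.71 (SD, n = 4 each). The ranges of neighbours overlapped from Jak2 to Ifngr1 and between Il10rb and Tyk2, and they did not overlap between Jak1 and Jak2, Ifngr1 and Ifnar2, or Ifnar2 and Il10rb. In Dp1Tyb, Ifnar1 was at 28.2 ± 1.44, Ifngr2 at 24.6 ± 1.07 and Jak2 at 22.2 ± 6.85 (SD, n = 4 each). Ifnar1 was above Ifngr2 in all Dp1Tyb libraries without overlap, and Ifngr2 was above Jak2 in 2 of 4. Without Dp1Tyb replicate 1, a choice made after seeing the data, Jak2 was at 25.5 ± 1.63 and Ifngr2 at 25.04 ± 0.71 (SD, n = 3 each), so the order of these 2 rests on that library. Il10rb and its kinase Tyk2 were the lowest in both genotypes. With the length of the longest transcript in place of the exons, Ifnar1 stood above Jak2 and Ifngr1 above Ifngr2 in WT. Over all 8 libraries Jak1 was above 95.5% of the tested genes with a known length and Tyk2 above 43.6%.

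For each gene, the genes of most similar pattern over the 8 libraries were taken from 11000 others with a mean of at least 100 counts. Ifnar1 and Ifnar2 were closest to each other (Pearson r = 0.993), and Rwdd2b, also in the duplicated stretch, came next for both (r = 0.983 and 0.979). Ifngr2 was closest to Psmg1 (r = 0.986) and Cbr3 (r = 0.983), which are duplicated too. Il10rb was closest to Sh3bgrl3 and Dpp7, outside the stretch (r = 0.937 each). Ifngr1 was closest to Tmed10 (r = 0.991) and Tceal9 (r = 0.988), Jak1 to Bmpr1a (r = 0.970) and Nup43 (r = 0.966), Jak2 to Hoxc9 (r = 0.982) and Sgk3 (r = 0.980), and Tyk2 to Zgpat (r = 0.978) and Asap3 (r = 0.977). These are descriptions over 8 libraries that share genotype and culture, and the highest of 11000 values is high by selection. With the mean of each genotype removed, r was 0.87 between Ifnar1 and Ifnar2, 0.89 between Jak1 and Jak2 and -0.93 between Jak1 and Tyk2. For the other pairs of the cluster, r went from 0.937 to 0.67 for Ifnar2 and Il10rb, from 0.973 to 0.45 for Ifnar1 and Ifngr2, from 0.915 to 0.35 for Il10rb and Ifnar1, from 0.969 to 0.08 for Ifnar2 and Ifngr2, and from 0.83 to -0.59 for Il10rb and Ifngr2.

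The protein-coding neighbours that begin within 100 kb of the receptor cluster were also higher in Dp1Tyb. Under relative scaling Tmem50b was 1.64-fold, Dnajc28 1.70-fold, Gart, an enzyme of purine synthesis, 1.74-fold and Son, a splicing factor, 1.36-fold higher. The SEs of their log2 fold changes were 0.20, 0.39, 0.15 and 0.10 in this order, and Dnajc28 had a mean of only 25.6 counts per library. With this scaling the groups did not overlap for Gart and Son, where 1.64% of all tested genes separated, and with spike-in scaling they did not overlap for Tmem50b alone, where 0.285% did. The lowest edgeR adjusted p of these 4 was 0.228, for Gart. The 4 subunits of the cluster, from 1.35-fold for Il10rb to 1.75-fold for Ifnar1, spanned about the same range.

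To see whether other parts of the pathway differed, 85 tested genes in 7 lists of ligands, receptors, signalling factors, regulators and targets were examined. None was called by edgeR at an adjusted p under 0.05, with relative or with spike-in scaling. An unadjusted p under 0.05 was found for 6 genes (3 of them higher in Dp1Tyb) with relative scaling and 4 genes (3 higher) with spike-in scaling, where 4.27% and 1.17% of all tested genes had one. DESeq2 called 1 of the 85 with relative scaling, Ptprc, where it called 0.316% of all tested genes, and 0 with spike-in scaling, where it called 0.0121%. It gave no adjusted p for 8 and 6 of them, which it could therefore not call.

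**Figure D5:**
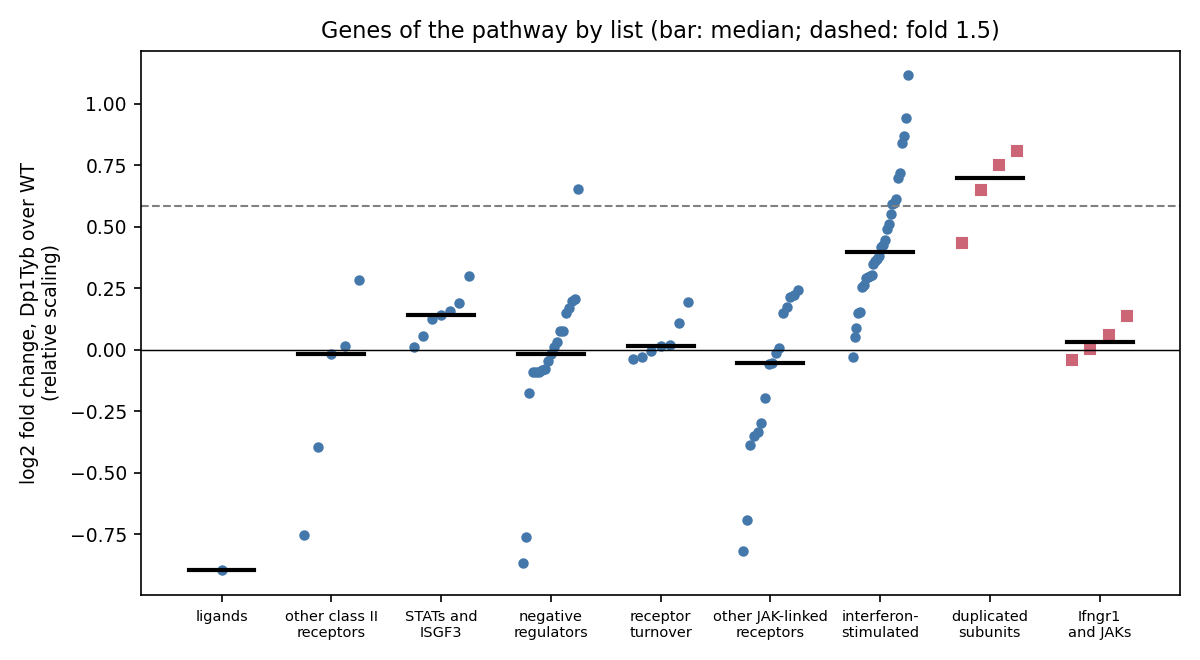
Log2 fold change of Dp1Tyb over WT (relative scaling) of each tested gene of the 7 pathway lists (blue circles) and of the 8 genes described here (red squares); thick bars are medians and the dashed line is a fold of 1.5. The duplicated subunits have a median of 0.70, Ifngr1 and the JAKs 0.03 and the interferon-stimulated genes 0.40.

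The ligands were nearly absent from the counts. Of 26 interferon and IL-10 family genes 2 were counted, Ifnk with a mean of 8.25 and Il10 with a mean of 14.3 counts per library. Reads with several alignments had been discarded, and how far this bears on the uncounted ligands was not tested. Of the other class II cytokine receptors, F3, the receptor of coagulation factor VII, was abundant at 2539 mean counts and moved by 0.01 on the log2 scale (SE 0.17, relative scaling). The others were low: Il10ra, the ligand-binding partner of Il10rb, had a mean of 25.9 counts, Il20ra 39.8, Il20rb 66.4 and Ifnlr1, the partner of Il10rb in the lambda interferon receptor, 9.88. For Il10ra the log2 fold change was -0.75 (SE 0.36), and its adjusted p in edgeR was 0.999. None of these 5 receptors had an unadjusted p under 0.05 in edgeR or was called by edgeR or DESeq2, which gave no adjusted p for Il10ra and Ifnlr1 with relative scaling. The partner chains of Il10rb for IL-10 and lambda interferon thus had few counts, beside a mean of 423 for Il10rb.

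All 7 counted genes of the STAT list had log2 fold changes above 0 under both scalings, as did 51.2% of all tested genes with relative and 70.4% with spike-in scaling, with medians of 0.14 with relative and 0.20 with spike-in scaling, and edgeR and DESeq2 called 0, with 0 at an unadjusted p under 0.05 in edgeR. With relative scaling the log2 fold changes were 0.05 (SE 0.09) for Stat3, the main effector of IL-10, 0.13 (SE 0.53) for Stat2, 0.30 (SE 0.25) for Irf9, the DNA-binding partner of STAT2, 0.01 (SE 0.10) for Stat5a, 0.19 (SE 0.15) for Stat5b and 0.14 (SE 0.12) for Stat6. Stat2 had 2880, 701, 829 and 598 normalised read counts in WT MEFs, against 2507, 946, 1124 and 884 in Dp1Tyb MEFs. Replicate 1 was thus the highest for Stat2 in each genotype, as it was for Tyk2 and unlike Jak2.

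Of 19 negative regulators edgeR called 0 under either scaling and DESeq2 called 1, Ptprc, with relative scaling. In edgeR 2 had an unadjusted p under 0.05 with relative scaling, Ptprc and Ptpn6, both lower in Dp1Tyb, and 1 with spike-in scaling. They are named after their values were seen. Ptprc (CD45), a phosphatase of leukocytes that can act on JAKs, had 286, 313, 315 and 291 normalised read counts in WT and 170, 172, 169 and 148 in Dp1Tyb MEFs. For both Ptprc and Ptpn6 every Dp1Tyb library was below every WT library, as for 1.52% of all tested genes. The log2 fold change of Ptprc was -0.87 (SE 0.12), and its adjusted p was 0.0903 in edgeR and 1.61e-07 in DESeq2. For Ptpn6 (SHP-1) the log2 fold change was -0.76 (SE 0.21), and edgeR gave an adjusted p of 0.876. The leukocyte markers, which include Ptprc, summed to 259 to 356 CPM in WT and 144 to 290 in Dp1Tyb, and all 6 tested markers had log2 fold changes below 0 with relative scaling. Cd3e was not counted. The part of leukocytes in these differences was not tested. The regulators of highest count, Ptpn11 and Socs5, had log2 fold changes of 0.15 (SE 0.10) and -0.08 (SE 0.16) with relative scaling.

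Among 7 genes of receptor turnover, Csnk1a1, a kinase of the IFNAR1 degron, and Rack1, a scaffold, were the most counted, with log2 fold changes of 0.01 (SE 0.11) and 0.19 (SE 0.16). Among 16 tested genes of other receptors that signal through the same JAKs, and Jak3, the shared chain Il6st and the oncostatin receptor Osmr were the most counted, with log2 fold changes of -0.01 (SE 0.17) and -0.06 (SE 0.08). No gene of either list was called by edgeR or DESeq2. With relative scaling 1, Csf3r, had an unadjusted p under 0.05 in edgeR and was lower in Dp1Tyb (log2 fold change -0.82). With spike-in scaling 0 had one. DESeq2 gave no adjusted p for Csf3r, Cntfr and Il2rg with relative scaling. The median of the 16 was -0.06 with relative scaling, where 6 of them were above 0, and 0.03 with spike-in scaling, where 9 were. Of all tested genes 51.2% were above 0 with relative and 70.4% with spike-in scaling.

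Of 30 interferon-stimulated genes, the targets of these receptors, 29 had a log2 fold change above 0 with relative scaling, where 51.2% of all tested genes did, and 30 with spike-in scaling (70.4% of all tested genes). Their median was 0.40 with relative and 0.39 with spike-in scaling, and none was called by edgeR or DESeq2 under either, with 3 at an unadjusted p under 0.05 in edgeR. DESeq2 gave no adjusted p for 2 of them with relative and 6 with spike-in scaling, Ifi44 and Oasl2 among the latter. Mx1 and Mx2 lie in the duplicated stretch themselves, at 97447035 to 97462907 and 97535308 to 97560900 on chromosome 16, and are thus also present in 3 copies. Of the 28 other targets 27 were above 0 with relative and 28 with spike-in scaling, with medians of 0.38 and 0.39. Genes that answer to the same receptors are not independent observations. The mean log2 CPM of the list was 4.53, 3.27, 3.40 and 3.002 in WT MEFs, against 4.35, 4.47, 3.95 and 3.77 in Dp1Tyb MEFs. WT replicate 1 was above every Dp1Tyb library, and the other WT libraries were below all of them. Without WT replicate 1, edgeR with spike-in scaling called 6 of all tested genes. Among them were 3 pathway genes, the duplicated Mx2, Ifi44 and Oasl2, with adjusted p values of 0.00314, 0.0156 and 0.0169. Their log2 fold changes were 2.04, 1.81 and 1.73, beside 1.14, 0.78 and 0.57 with all libraries. Leaving out any other single library called 0 pathway genes, and 2 to 8 of all tested genes. With relative scaling, leaving out WT replicate 1 called 0 pathway genes. With both replicates 1 left out edgeR called 0 pathway genes under either scaling. The most counted targets, B2m and Ifitm3, had log2 fold changes of 0.45 (SE 0.18) and 0.30 (SE 0.19) with relative scaling.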

How the data were processed

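Raw counts per gene and per spike-in of 4 WT and 4 Dp1Tyb libraries were deposited by the authors, without normalisation. According to the methods and the submitters' processing notes, reads were trimmed with Trim Galore and aligned with TopHat2 2.0.12 to GRCm38 together with the ERCC sequences. Reads with several alignments were discarded and genes were counted with htseq-count. The annotation release and strand option are not given in the sources used here; both bear on Tyk2, Ifnar2 and Il10rb, which overlap other genes. The authors also deposited normalised counts and a table of their own DESeq2 comparison (fold changes and p values), neither of which was used.

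Relative scaling used TMM factors over 19493 endogenous genes, and spike-in scaling used median-of-ratios factors over the ERCC RNAs. Normalised read counts are counts divided by these factors, whose geometric mean is 1. filterByExpr kept 16470 genes. Dp1Tyb was compared with WT in edgeR 4.0.16 (R 4.3.3) by the two-sided quasi-likelihood test with Benjamini-Hochberg adjustment over all tested genes and a threshold of 0.05, and in DESeq2 1.42.0 as an alternative. The edgeR script was tested on simulated data. Standard errors are the log2 fold change over the root of its F statistic. Ratios used a pseudocount of 0.5 counts. RPKM used the union of exons in GENCODE M21 (GRCm38), from which positions were also taken. Promoters came from RefSeq (GRCm38.p6). Other scalings and filters on low counts, a replicate block and leaving out each library were tried as alternatives.

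The members and lists were chosen with earlier results of these data known. Named were the 8 genes, pathway genes called by edgeR, the 2 most counted genes of each list, all counted genes of the receptor and STAT lists, the 2 genes of closest pattern to each member and the neighbours of the cluster. Ptprc, Ptpn6, Csf3r, Cntfr, Il2rg, Mx1 and the targets called without WT replicate 1 were named outside this rule, after their values were seen. 1 gene is not reported here.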

Additional observations from a re-analysis of the deposited data

Results flagged for a closer look

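In 36 groups of 4 libraries, formed by the 8 genes under both scalings and by the Ifngr2 to Ifngr1 and Ifnar1 to Ifnar2 ratios, 5 held a library far from the other three. Chance alone marks about 1 group in 20 in this way, and the groups share libraries. The measure is the gap of the extreme library to its nearest neighbour as a share of the whole range. All 5 concern replicate 1. It was 0.863 for Jak1 and 0.865 for Jak2, which were lowest in WT replicate 1, and 0.858 for Tyk2, which was highest there. For Jak2 it was 0.852 in Dp1Tyb replicate 1, again the lowest, each under relative scaling. For the Ifnar1 to Ifnar2 ratio it was 0.995, with Dp1Tyb replicate 1 lowest.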

How the results depend on the processing

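All 8 log2 fold changes moved by less than 1 SD between replicates under each alternative. The duplicated subunits kept their sign, while Ifngr1 (relative scaling), Jak1, Jak2 and Tyk2 changed sign when some libraries were left out. Counts of calls were less stable. Of all tested genes edgeR called 2 with spike-in scaling, 0 with at least 10 counts in every library, and 2 to 8 with 1 library left out (6 without WT replicate 1, 4, 8 and 6 without Dp1Tyb replicates 1, 2 and 4). It called 3 with relative scaling, 0 with at least 10 counts in every library, 1 at an adjusted p under 0.01, 1 with each library left out and 1 without both replicates 1, a setting chosen after seeing the data. DESeq2 called 52 genes with relative scaling. Of the pathway genes edgeR called 0 with spike-in scaling and 0 to 3 with 1 library left out (3 without WT replicate 1), and DESeq2 called 1 with relative scaling. The cause was not tested.

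Same-numbered libraries correlated at 0.366, 0.524, 0.03 and 0.327 in their deviations from the genotype means, so that 1 pair was near 0. Differently numbered libraries correlated at -0.447 to 0.317. WT replicates 1, 2 and 4 each correlated best with the Dp1Tyb library of the same number, and WT replicate 3 with Dp1Tyb replicate 4. The numbers were not taken as pairs. With a replicate block edgeR called 9 genes with spike-in and 7 with relative scaling, and 1 pathway gene, the duplicated Mx2, with spike-in scaling. With relative scaling the 7 included Ifnar1 and Ifngr2, the latter not called without the block.

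With 4 libraries a genotype and a spike-in spread of 0.688 to 1.31 in RNA per spike-in, a 1.5-fold difference of a single gene could not be told from none with spike-in scaling for Il10rb, Ifngr1, Jak1, Jak2 or Tyk2, and with relative scaling for Jak2.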
